A study of Homo sapiens with 9 samples.

Results

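The 86 genes described here were chosen by symbol, and a few, such as LSM1, LSM10, LSM11, LSM14A and LSM14B, act on mRNA outside splicing. Most encode protein components of the machinery that removes introns from pre-mRNA or RNA-binding proteins that steer it. All 86 are called splicing genes below. They were taken from a table of 36225 genes as the entries with a protein-coding transcript whose symbol begins with HNRNP or SNRP, begins with SF3A, SF3B, PRPF, LSM or U2AF followed by a digit, or is SRSF followed by a number. They fall into 7 families: 23 hnRNP genes, 13 PRPF, 13 LSM, 12 SNRP, 12 SRSF, 9 SF3A and SF3B and 4 U2AF genes. Their mRNA levels were read from poly(A) RNA of RBE, a human cell line derived from a bile duct cancer within the liver. Cells had received scramble lentivirus (control) or lentivirus for knockdown of IDH1 (shIDH1) or of JOSD2 (shJOSD2), and each of the 3 groups has 3 libraries. IDH1 is an isocitrate dehydrogenase of the cytosol, and JOSD2 is a deubiquitinase of the Josephin family. All groups thus share the viral infection, and the labels do not say how many hairpin sequences were used or whether replicates were infected separately, so p-values reflect only how far these libraries spread, possibly for technical reasons.

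The spliceosome is assembled anew on each intron from small nuclear ribonucleoproteins (snRNPs), each a short RNA held by a ring of Sm or LSM proteins. The U1 snRNP reads the 5′ splice site, the U2AF dimer the 3′ splice site, the U2 snRNP with SF3A and SF3B the branch point, and the tri-snRNP of U4, U6 and U5 then brings in the catalytic parts. SR proteins and hnRNPs bind exons and introns and favour or block the use of nearby splice sites.

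Library totals lay between 66036276 and 71612713 deposited counts. The targeted genes followed the labels: IDH1 stood at 45.6, 38.9 and 47.4 FPKM in the controls, 12.4, 13.1 and 12.3 under shIDH1 and 32.7, 35.2 and 35.5 under shJOSD2, and JOSD2 at 6.66, 6.31 and 6.15, then 1.51, 1.85 and 1.70, then 0.771, 0.708 and 0.906. JOSD2 was therefore low with either hairpin, and lowest with its own. The bile duct keratins KRT7 and KRT19 were at 186 FPKM or more in every library, and EPCAM and SOX9 at 15.2 to 28.2. KRT7 and EPCAM fell in shIDH1 cells (log2 changes of -0.88 ± 0.09 and -0.21 ± 0.06). In shJOSD2 cells KRT7 and KRT19 fell (-0.34 ± 0.09 and -0.58 ± 0.07) and SOX9 rose (0.54 ± 0.10). The leukocyte, endothelial and fibroblast lists summed to at most 1.3, 1.02 and 6.19 FPKM. DCN was at 0 in 7 of 9 libraries, but COL1A1 rose in shIDH1 cells (1.53 ± 0.11). COL1A2 and CDH5, at 0.147 FPKM or less, also rose there (2.29 ± 0.67 and 2.56 ± 0.98). Of 8 proliferation markers, 8 fell with each hairpin, and their summed level was 427 to 534 FPKM in control, 60.0 to 83.3 in shIDH1 and 197 to 204 in shJOSD2 libraries. Proliferation thus moved in the same order of groups as most splicing genes below. A list of 7 nuclear and structural RNAs used as signs of RNA quality summed to 24.5 to 33.9 FPKM in control, 40.2 to 41.9 in shIDH1 and 41.7 to 43.2 in shJOSD2 libraries. Of the 5 tested, NEAT1 and MALAT1 rose and KCNQ1OT1 fell in shIDH1 cells (0.54 ± 0.07, 0.60 ± 0.13 and -1.04 ± 0.15), and NEAT1 and RN7SK rose in shJOSD2 cells (0.41 ± 0.07 and 2.66 ± 0.65). The part of proliferation and of RNA quality in the changes below was not tested. Control replicate 1 differed from the other controls in hepatocyte transcripts (APOA1 at 2.91 FPKM against 40 and 45.5) and was the lowest control for 54 of 85 splicing genes, against 26.4% of all tested genes, so values with it as the lone control are also given.

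Most splicing genes were lower with either hairpin, and the shIDH1 cells had the lower levels. Their summed level was 2495, 2700 and 2803 FPKM in the control libraries, 1640, 1600 and 1573 in shIDH1 and 2156, 2242 and 2274 in shJOSD2 libraries. The groups did not overlap, and the sum came to 0.885% ± 0.0315, 0.529% ± 0.0105 and 0.703% ± 0.0263 of all FPKM (SD, n = 3 each). In these bulk libraries, fewer cells with high levels and less RNA per cell cannot be told apart. Of the 86 genes, 85 passed the low-count filter and were tested. HNRNPCL4, a relative of the hnRNP C gene, did not, with 0 counts in 8 libraries and 0.0164 FPKM in shIDH1 replicate 2.

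**Figure D1:**
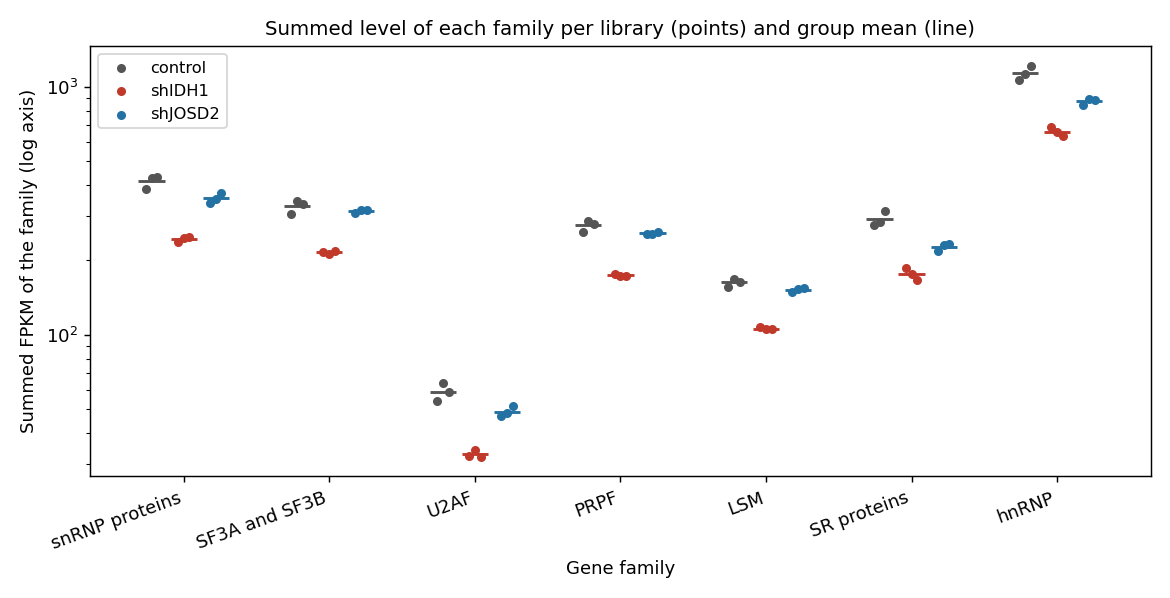
Summed FPKM of each of the 7 families on a log axis, with 1 point per library and a line at the group mean. In every family the 3 shIDH1 libraries (red) lie below all control libraries (grey), and the hnRNP family is the most abundant, at 1058 to 1216 FPKM in control.

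In shIDH1 cells, 66 of the 85 tested genes fell and 3 rose at an adjusted p of 0.05, with a median log2 change of -0.77. Over all 21492 tested genes 50.1% were called, 25.6% lower and 24.5% higher, and the median was 0.01. At least 2-fold falls were called for 24 splicing genes, against 9.40% of all tested genes. FPKM ranges were separate from control for 73, against 56.9%. In shJOSD2 cells 50 fell and 4 rose, with a median of -0.34, beside 38.3% called, 20.1% lower and 18.2% higher, and a median of 0.03 over all tested genes. None of these falls reached 2-fold, against 4.25% of all tested genes, and FPKM ranges were separate for 50 (51.7% of all). In the direct comparison of shIDH1 with shJOSD2 cells, 52 were lower and 5 higher, with a median of -0.33 and 7 falls of at least 2-fold (8.00% of all), beside 44.8% called, 24.0% lower and 20.8% higher, and a median of -0.06 over all tested genes. FPKM ranges of the hairpins were separate for 68 (58.4% of all). Among genes with a protein-coding transcript the shares of lower calls were 32.9%, 26.9% and 29.6% of 15135.

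The comparisons with control share their control libraries, so genes called in both are not counted as a result, and each comparison's own values are given side by side below. A group of 11 genes was called in neither: HNRNPA1L2, HNRNPH2, LSM1, LSM12, LSM14A, PRPF4B, PRPF18, SF3A2, SF3B1, SRSF11 and SRSF12.

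The FPKM levels below are scaled to transcript length and library size, while the log2 changes come from counts that were further scaled by TMM factors. These factors were 1.07 to 1.08 in shJOSD2 libraries and 0.942 to 0.985 in the others, so a fitted shJOSD2 change is lower than the ratio of FPKM values. Without TMM factors the median of all genes moved to 0.18 in shJOSD2 cells, and 34 splicing genes were lower and 8 higher with a median of -0.18. Over all 21492 tested genes the lower calls there went from 4330 to 2934 and the higher calls from 3907 to 5638. Relative to the median of all genes the splicing genes' median was -0.37 with and without TMM factors. By family, the shJOSD2 counts of lower genes then went from 18 to 14 for hnRNP, from 8 to 5 for SNRP, from 6 to 3 for PRPF, from 5 to 3 for LSM, from 5 to 2 for SF3A and SF3B and from 2 to 1 for U2AF genes, and stayed at 6 for SR proteins. With control replicate 1 as the lone control, 32 were lower and 1 higher in shJOSD2 cells with a median of -0.17, and 61 lower and 3 higher in shIDH1 cells with a median of -0.60. Relative to all genes these medians were -0.24 and -0.65.

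**Figure D2:**
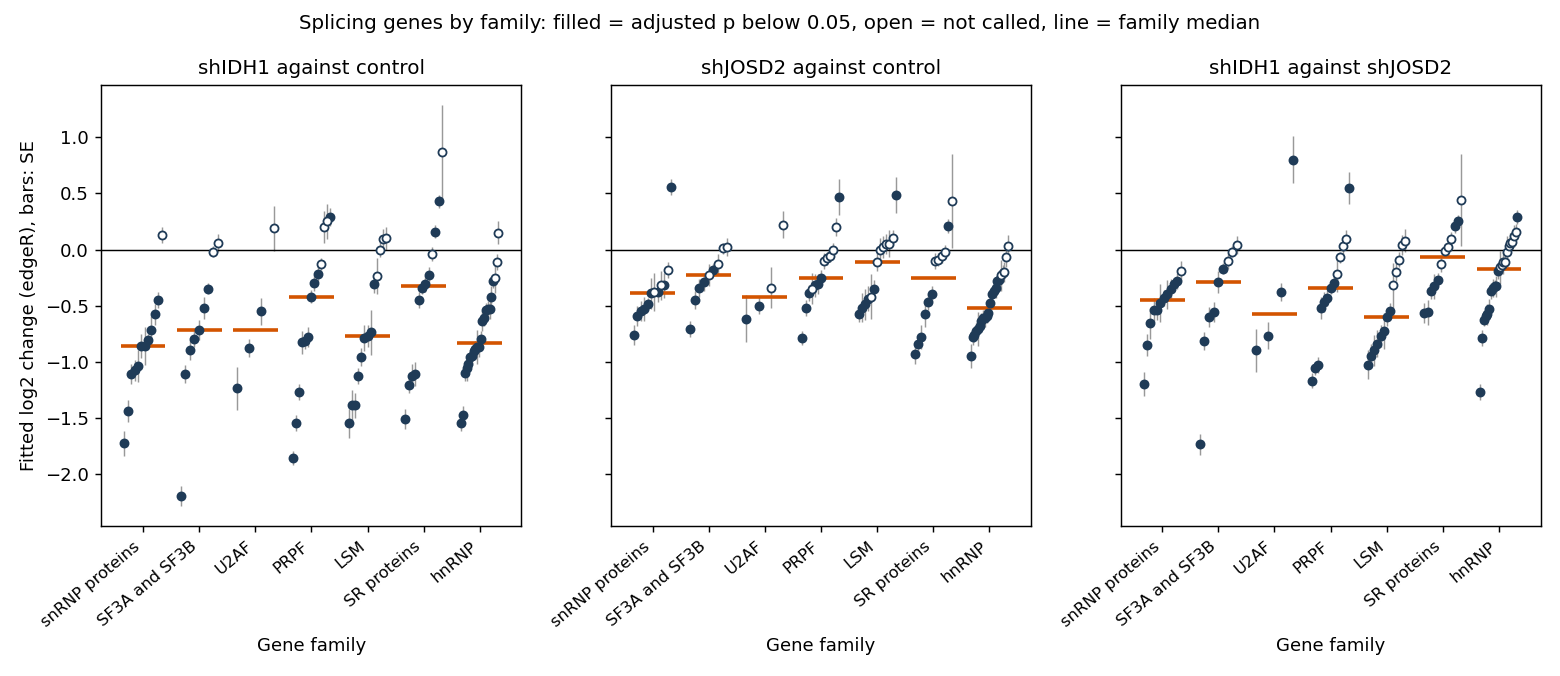
Fitted log2 change (edgeR, y axis, bars are SE) of each tested splicing gene, by family and comparison, with filled points for adjusted p below 0.05, open points for genes not called and an orange line at the family median. All 7 family medians lie below 0 in each comparison, between -0.32 and -0.86 for shIDH1 and between -0.11 and -0.52 for shJOSD2; the LSM median in shJOSD2 cells turned to 0.05 without TMM factors and to 0.04 and 0.05 by limma.

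The Sm proteins B, D1, D2, D3, E, F and G form the ring that clasps the U1, U2, U4 and U5 RNAs. All 7 of their genes fell in shIDH1 cells (median -0.86) and 6 of 7 in shJOSD2 cells (median -0.39; 3 of 7 without TMM factors), where SNRPG stood at -0.38 ± 0.17 and missed the threshold (edgeR adjusted p = 0.0971). SNRPF (ENSG00000139343, GRCh38 chr12:95858928-95903828, plus strand) fell furthest in shIDH1 cells. Its level was 8.55, 10.4 and 9.82 FPKM in the controls, 2.65, 3.13 and 2.92 under shIDH1 and 7.07, 7.83 and 7.22 under shJOSD2. The 3 groups did not overlap, and the gene fell 3.31-fold in shIDH1 cells (log2 change -1.73 ± 0.11, edgeR adjusted p = 7.87e-08) and 1.44-fold in shJOSD2 cells (adjusted p = 0.00188). The latter call ended with the lone control. SNRPD1 fell in shIDH1 cells by 1.44 ± 0.10 on a log2 scale, from 9.17 ± 1.06 to 3.39 ± 0.161 FPKM (SD, n = 3), and by 0.59 ± 0.09 in shJOSD2 cells.

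SNRPB, encoding the B and B′ proteins, was the most abundant of the family at 177, 187 and 195 FPKM in the controls, 103, 108 and 110 under shIDH1 and 140, 147 and 154 under shJOSD2, with log2 changes of -0.81 ± 0.06 and -0.49 ± 0.06. Its paralog SNRPN encodes SmN, the form known from brain, within an imprinted region and a transcription unit it shares with SNURF, so its counts are uncertain. SNRPN stood at 26.4, 24.8 and 26.2 FPKM in the controls, 26.0, 30.0 and 29.0 under shIDH1 and 40.1, 41.8 and 44.4 under shJOSD2. The shJOSD2 libraries lay above all others, with a rise of 0.56 ± 0.07 (edgeR adjusted p = 3.33e-05), while the shIDH1 value of 0.13 ± 0.07 did not pass (adjusted p = 0.115). SNRPE and SNRPD2 fell by 1.04 ± 0.14 and 0.86 ± 0.11 in shIDH1 cells. Their calls in shJOSD2 cells, at -0.39 ± 0.14 and -0.32 ± 0.11, ended when any of several single libraries was left out (edgeR adjusted p of up to 0.163 without shJOSD2 replicate 2 for SNRPE, and up to 0.17 without shJOSD2 replicate 1 for SNRPD2). With the lone control they were -0.29 and -0.12 and not called.

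Both U1-specific genes of the family fell with each hairpin. SNRPA, the U1 protein A, was at 22.5, 26.3 and 28.2 FPKM in the controls, 11.9, 12.1 and 11.8 under shIDH1 and 16.8, 16.3 and 17.4 under shJOSD2, 3 separate ranges with log2 changes of -1.11 ± 0.09 and -0.76 ± 0.09. SNRPC, the U1 protein C that touches the 5′ splice site duplex, fell by 1.08 ± 0.09 and 0.55 ± 0.09. The U2 genes SNRPA1 and SNRPB2 fell in shIDH1 cells by 0.72 ± 0.13 and 0.45 ± 0.07, and in shJOSD2 cells had values of -0.32 ± 0.13 and -0.18 ± 0.07 that did not pass.

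**Figure D3:**
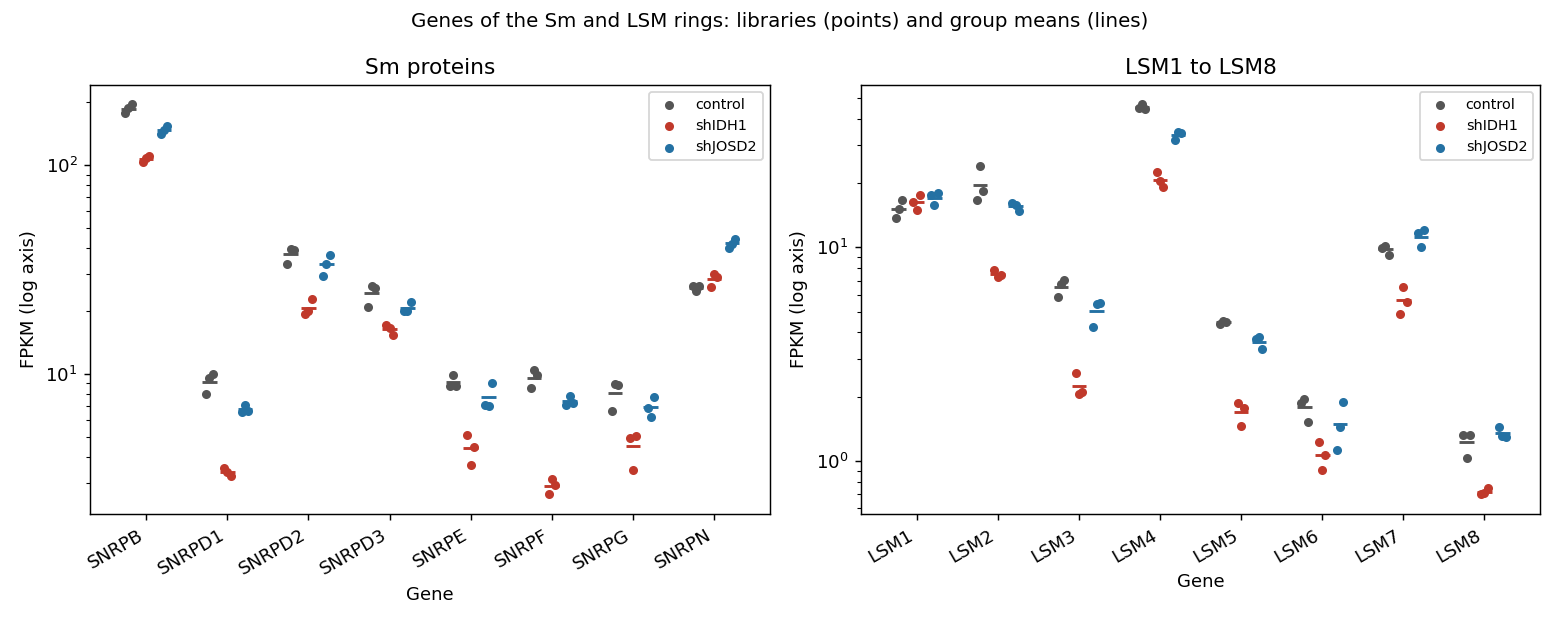
FPKM on a log axis for the Sm genes with SNRPN (left) and for LSM1 to LSM8 (right), 1 point per library and a line at the group mean. The shIDH1 libraries (red) lie below the controls (grey) for every gene but SNRPN and LSM1; for SNRPN the shJOSD2 libraries (blue) are the highest, at 40.1 to 44.4 FPKM.

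The LSM proteins 2 to 8 form the ring at the 3′ end of the nuclear U6 RNA, and in the cytoplasm LSM1 takes the place of LSM8 in a ring that promotes mRNA decapping. All 7 genes from LSM2 to LSM8 fell in shIDH1 cells, with a median of -1.13, and 4 of 7 fell in shJOSD2 cells with a median of -0.44. LSM3 was at 5.83, 6.76 and 7.05 FPKM in the controls, 2.58, 2.05 and 2.10 under shIDH1 and 4.24, 5.43 and 5.51 under shJOSD2. All shIDH1 libraries lay below all others, and LSM3 fell by 1.55 ± 0.13 (edgeR adjusted p = 9.84e-07), LSM2 by 1.39 ± 0.14, LSM5 by 1.39 ± 0.11 and LSM4 by 1.13 ± 0.07. In shJOSD2 cells LSM4 fell by 0.58 ± 0.07 and LSM3 by 0.52 ± 0.13, a call that ended with the lone control. The LSM2 call there, at -0.49 ± 0.14, was lost without control replicate 2 (-0.30, edgeR adjusted p = 0.053) or shJOSD2 replicate 3 (adjusted p = 0.0614), and with the lone control (-0.21). LSM7 and LSM8 had changes of 0.05 ± 0.12 and 0.00 ± 0.10 in shJOSD2 cells and were lower in shIDH1 than in shJOSD2 cells by 0.84 ± 0.12 and 0.77 ± 0.10.

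LSM1 was called with neither hairpin. Its level was 13.8, 15.2 and 16.6 FPKM in the controls, 16.4, 14.9 and 17.6 under shIDH1 and 17.5, 15.8 and 18 under shJOSD2, overlapping ranges with fitted changes of 0.10 ± 0.10 and 0.02 ± 0.10. LSM1 made up 92.5% ± 1.22 of the summed FPKM of LSM1 and LSM8 in the controls, 95.8% ± 0.268 under shIDH1 and 92.7% ± 0.534 under shJOSD2. This share depends on the transcript lengths behind FPKM, as LSM1 had 1684 to 1970 counts in control and LSM8 1274 to 1669. LSM10 and LSM11 belong to the U7 snRNP, which processes histone mRNA ends. LSM10 fell in shIDH1 cells by 0.31 ± 0.08. LSM11 was at 1.63, 1.65 and 1.58 FPKM in the controls, 1.45, 1.69 and 0.985 under shIDH1 and 2.53, 2.45 and 2.59 under shJOSD2, higher in the latter by 0.49 ± 0.16 (edgeR adjusted p = 0.0272). That call was lost on leaving out any of 5 libraries (control replicates 1 and 3 and each shJOSD2 library, adjusted p from 0.0506 to 0.0697), and with the lone control (0.51).

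SF3A and SF3B are the subcomplexes through which U2 holds the branch point. SF3A3 (ENSG00000183431, GRCh38 chr1:37956975-37990022, minus strand), encoding a subunit of SF3A, had the largest fall of the 85 tested genes in shIDH1 cells. It was at 30.0, 32.3 and 29.8 FPKM in the controls, 7.60, 6.66 and 5.87 under shIDH1 and 23.7, 24.6 and 26.4 under shJOSD2. The groups did not overlap, and SF3A3 fell 4.58-fold in shIDH1 cells (log2 change -2.20 ± 0.09, edgeR adjusted p = 2.25e-09) and 1.37-fold in shJOSD2 cells (adjusted p = 0.000861). SF3A1 fell by 1.11 ± 0.08 in shIDH1 cells. Its fall of 0.29 ± 0.08 in shJOSD2 cells was not called without control replicate 3 (-0.20, edgeR adjusted p = 0.0529) or shJOSD2 replicate 3 (adjusted p = 0.0646), nor with the lone control (-0.14). The third subunit gene, SF3A2, stood at 28.6, 34.3 and 32.7 FPKM in the controls, 33.1, 33.3 and 33.4 under shIDH1 and 37.6, 36.9 and 33.1 under shJOSD2, with fitted changes of 0.06 ± 0.08 and 0.02 ± 0.08. On the FPKM scale SF3A3 and SF3A2 had similar mean levels in control, at 30.7 and 31.9, and stood at 6.71 and 33.3 in shIDH1 cells.

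The promoters of these genes are shown because SF3A3 and SF3A2 moved so differently and because SNRPF and HNRNPM had the largest falls of their families in shIDH1 cells. Each line is the 150 bases before the RefSeq start site in GRCh38.p14, 5′ to 3′ on the gene's strand, for SF3A3 at chr1:37990023-37990172 (minus strand), SF3A2 at chr19:2236674-2236823 (plus), SNRPF at chr12:95858802-95858951 (plus) and HNRNPM at chr19:8444825-8444974 (plus). Capitals mark matches on either strand to CCGGAAGT, the core bound by ETS factors, ATTGG, the CCAAT box, and CACGTG, the E-box.
SF3A3: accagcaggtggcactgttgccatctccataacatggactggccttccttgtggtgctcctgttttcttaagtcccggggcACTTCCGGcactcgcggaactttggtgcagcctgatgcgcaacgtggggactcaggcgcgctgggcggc
SF3A2: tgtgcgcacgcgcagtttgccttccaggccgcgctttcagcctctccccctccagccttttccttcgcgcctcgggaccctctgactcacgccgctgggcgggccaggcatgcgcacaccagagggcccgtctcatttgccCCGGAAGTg
SNRPF: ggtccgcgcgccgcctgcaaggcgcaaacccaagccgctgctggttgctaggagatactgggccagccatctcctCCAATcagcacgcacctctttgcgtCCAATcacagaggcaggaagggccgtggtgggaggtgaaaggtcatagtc
HNRNPM: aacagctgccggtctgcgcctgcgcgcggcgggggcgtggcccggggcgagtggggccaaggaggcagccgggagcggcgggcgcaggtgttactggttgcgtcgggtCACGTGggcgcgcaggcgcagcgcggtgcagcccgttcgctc
The SF3A3 match ACTTCCGG begins 69 bases before the start site and that of SF3A2 9 bases before it. Both the gene that fell furthest in shIDH1 cells and SF3A2, which was not called, hold this motif. Among 24 promoters of splicing genes not lower in shIDH1 cells, only that of SF3A2 held it. SNRPF holds a pair of CCAAT boxes, 75 and 50 bases upstream, and HNRNPM an E-box 42 bases upstream. PRPF4, with the largest fall of the PRPF genes in shIDH1 cells (log2 change -1.86 ± 0.06), had 0 matches to these motifs in its 150 bases. That stretch is not printed.

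Promoters were found in RefSeq for 73 of the 86 genes, as 98 start sites, and 250 bases before each start were searched on both strands. CCGGAAGT was present in 14.3% of these promoters (14 of 98), against 3.42% of all 35116 promoters. It was in 17.6% (13 of 74) of those of genes lower in shIDH1 cells against 4.17% (1 of 24) of those of the other splicing genes. Its inner part CCGGAA, which any CCGGAAGT match contains, was present in 33.7% against 14.5% of all. The CCAAT box was in 38.8% against 32.0%, the GC box GGGCGG in 53.1% against 42.6%, and TATAAA in 7.14% against 10.7%. CACGTG was in 9.18% against 6.34% of all, and in 5.41% (4 of 74) of those of lower genes against 20.8% (5 of 24) of the others. The remaining 6 of the 12 motifs searched were each in 0 to 3 of the 98. They were the E2F sites TTTGGCGC and TTTCGCGC, the cAMP response element TGACGTCA, the palindromic NRF1 site, the YY1 site and another palindrome. That other palindrome was in 3.06% (3 of 98) against 0.373% of all, and TTTGGCGC in 2.04% (2 of 98) against 0.550%. The NRF1 site was in 1.02% (1 of 98) against 1.03%. TTTCGCGC, TGACGTCA and the YY1 site were in 0 of the 98, against 0.439%, 1.65% and 0.248% of all. Promoters of 1 gene can overlap, the motifs were chosen after the values were seen, and the shares are a description with no test.

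Within SF3B, 5 of 6 genes fell in shIDH1 cells and 3 in shJOSD2 cells. SF3B3, the scaffold subunit, was at 13.0, 15.3 and 15.3 FPKM in the controls, 8.31, 8.48 and 8.27 under shIDH1 and 10, 9.61 and 10 under shJOSD2. It fell with either hairpin, by 0.80 ± 0.07 and 0.71 ± 0.07, with a difference of -0.10 ± 0.07 between them that did not pass (edgeR adjusted p = 0.33) but was called without TMM factors, at -0.25. SF3B4 fell by 0.90 ± 0.09 and 0.34 ± 0.08, the latter not called with the lone control. SF3B5, the most abundant of the family at 76.0 ± 4.49 FPKM in control, fell by 0.72 ± 0.09 in shIDH1 cells and had a value of -0.13 ± 0.09 in shJOSD2 cells. SF3B1, the branch-point subunit that is recurrently mutated in cancers, stood at 32.5, 30.2 and 30.3 FPKM in the controls, 31.9, 30.5 and 29.7 under shIDH1 and 33.6, 34.6 and 35.3 under shJOSD2, with fitted changes of -0.02 ± 0.05 and 0.01 ± 0.05.

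U2AF2, the large U2AF subunit that reads the polypyrimidine tract, was at 44.1, 52.6 and 47.9 FPKM in the controls, 25.9, 27.2 and 25.7 under shIDH1 and 36.2, 37.5 and 40 under shJOSD2. These ranges were separate, with falls of 0.88 ± 0.08 (edgeR adjusted p = 1.21e-06) and 0.50 ± 0.08 (adjusted p = 0.000272). The small subunit, which reads the AG at the intron end, is annotated at U2AF1 and the near-identical U2AF1L5, both on chromosome 21, between which the authors' counting could split reads. Their summed level was 8.57, 9.86 and 9.87 FPKM in the controls, 5.15, 5.16 and 5.10 under shIDH1 and 9.60, 10 and 10.6 under shJOSD2, so the shIDH1 libraries were lowest and those of shJOSD2 overlapped control. Taken singly, U2AF1 fell by 1.24 ± 0.19 and U2AF1L5 by 0.55 ± 0.12 in shIDH1 cells. U2AF1L4, a related gene at 1.10 to 1.43 FPKM in control, had a value of -0.62 ± 0.21 in shJOSD2 cells whose call ended without any 1 of 5 libraries (control replicates 2 and 3 and each shJOSD2 library, edgeR adjusted p of 0.0542 to 0.127) and with the lone control (-0.41).

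PRPF genes encode the processing factors of the tri-snRNP and the catalytic spliceosome. PRPF4 (ENSG00000136875, GRCh38 chr9:113275642-113294009, plus strand) and PRPF3, which bind each other on the U4/U6 duplex, had the largest falls. PRPF4 was at 23.8, 24.0 and 26.1 FPKM in the controls, 6.96, 6.88 and 6.61 under shIDH1 and 15.3, 15.8 and 16.2 under shJOSD2. PRPF3 was at 8.71, 9.09 and 8.89, then 3.11, 3.16 and 2.84, then 7.21, 6.69 and 6.74 FPKM. Both genes kept the 3 groups apart, with falls of 1.86 ± 0.06 and 1.55 ± 0.07 in shIDH1 cells (edgeR adjusted p = 8.59e-10 and 7.67e-09) and of 0.79 ± 0.06 and 0.52 ± 0.07 in shJOSD2 cells. PRPF31, a further U4/U6 protein, fell by 0.78 ± 0.09 and 0.31 ± 0.09. PRPF8, the U5 protein at the catalytic centre, fell by 0.82 ± 0.07 and 0.39 ± 0.07, and PRPF6, the bridge between U5 and U4/U6, by 0.22 ± 0.07 and 0.25 ± 0.07. The PRPF31 and PRPF6 calls in shJOSD2 cells and the PRPF6 call in shIDH1 cells were lost under at least 1 alternative.

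PRPF19, the ubiquitin ligase that gives the Prp19 complex its name, set the hairpins apart. It was at 54.3, 63.5 and 58.2 FPKM in the controls, 25.1, 24.1 and 24.1 under shIDH1 and 60.5, 58.6 and 63.2 under shJOSD2. Only the shIDH1 libraries were low, with a fall of 1.27 ± 0.07 against control (edgeR adjusted p = 2.93e-08) and of 1.17 ± 0.07 against shJOSD2 (adjusted p = 8.83e-08), while shJOSD2 against control gave -0.10 ± 0.07 (adjusted p = 0.304). PRPF39, a U1-associated protein, rose by 0.29 ± 0.08 in shIDH1 cells. PRPF38A fell by 0.83 ± 0.10 there. In shJOSD2 cells PRPF38A had a value of -0.32 ± 0.10 and PRPF40B one of 0.47 ± 0.16, calls that were lost without control replicate 2 (edgeR adjusted p = 0.0717 and 0.0745) and without several other single libraries, among them shJOSD2 replicate 3, without which PRPF40B was at 0.24 (adjusted p = 0.195). With the lone control they were -0.17 and 0.38 and not called. PRPF18, a factor of the late splicing step, was called between the hairpins alone, 0.55 ± 0.14 higher in shIDH1 cells.

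Of the 12 SR protein genes, 8 fell and 2 rose in shIDH1 cells, and 6 fell and 1 rose in shJOSD2 cells. SRSF2 (ENSG00000161547, GRCh38 chr17:76734115-76737333, minus strand), also known as SC35, was the most abundant in control, at 74.7, 72.8 and 80.8 FPKM in the controls, 29.2, 29.3 and 22.1 under shIDH1 and 42.4, 44.9 and 45.3 under shJOSD2. SRSF1, also known as ASF/SF2, was at 51.0, 55.6 and 58.7, then 26.3, 23.3 and 21.9, then 33.8, 33.8 and 34.7 FPKM. Neither gene had overlapping groups, and their falls were 1.51 ± 0.09 and 1.21 ± 0.07 in shIDH1 cells and 0.93 ± 0.09 and 0.84 ± 0.07 in shJOSD2 cells (edgeR adjusted p = 6.74e-06 and 2.9e-06 for the latter pair). SRSF3 fell by 1.11 ± 0.11 and 0.78 ± 0.11, and SRSF7 by 1.13 ± 0.11 and 0.58 ± 0.11. The difference in SRSF3 between the hairpins, -0.33 ± 0.11, was lost without any 1 of shIDH1 replicates 2 and 3 and shJOSD2 replicates 2 and 3 (edgeR adjusted p from 0.0553 to 0.081). SRSF10 and SRSF4 fell by similar amounts with both hairpins, 0.45 ± 0.07 and 0.47 ± 0.07 for SRSF10 and 0.31 ± 0.07 and 0.40 ± 0.07 for SRSF4, and neither was called between them.

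SRSF11 was level at 9.10, 9.10 and 9.03 FPKM in the controls, 9.29, 8.98 and 8.36 under shIDH1 and 10, 10.1 and 9.55 under shJOSD2 (fitted changes of -0.04 ± 0.06 and -0.02 ± 0.06). SRSF5 and SRSF6 fell in shIDH1 cells by 0.34 ± 0.06 and 0.23 ± 0.07. SRSF9 rose there by 0.16 ± 0.06 at an edgeR adjusted p of 0.0494, a call that some alternatives ended. SRSF8, a gene derived from a retrocopy of SRSF2, was at 8.31, 7.72 and 8.14 FPKM in the controls, 11.2, 10.7 and 10.7 under shIDH1 and 10.1, 10.2 and 10.7 under shJOSD2. All 6 hairpin libraries exceeded the controls, with rises of 0.43 ± 0.06 (edgeR adjusted p = 6.72e-05) and 0.21 ± 0.06 (adjusted p = 0.0138), the second of which was not called in every alternative. SRSF12 was barely detected, at 0.0515 to 0.130 FPKM over the 9 libraries, and was not called.

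**Figure D4:**
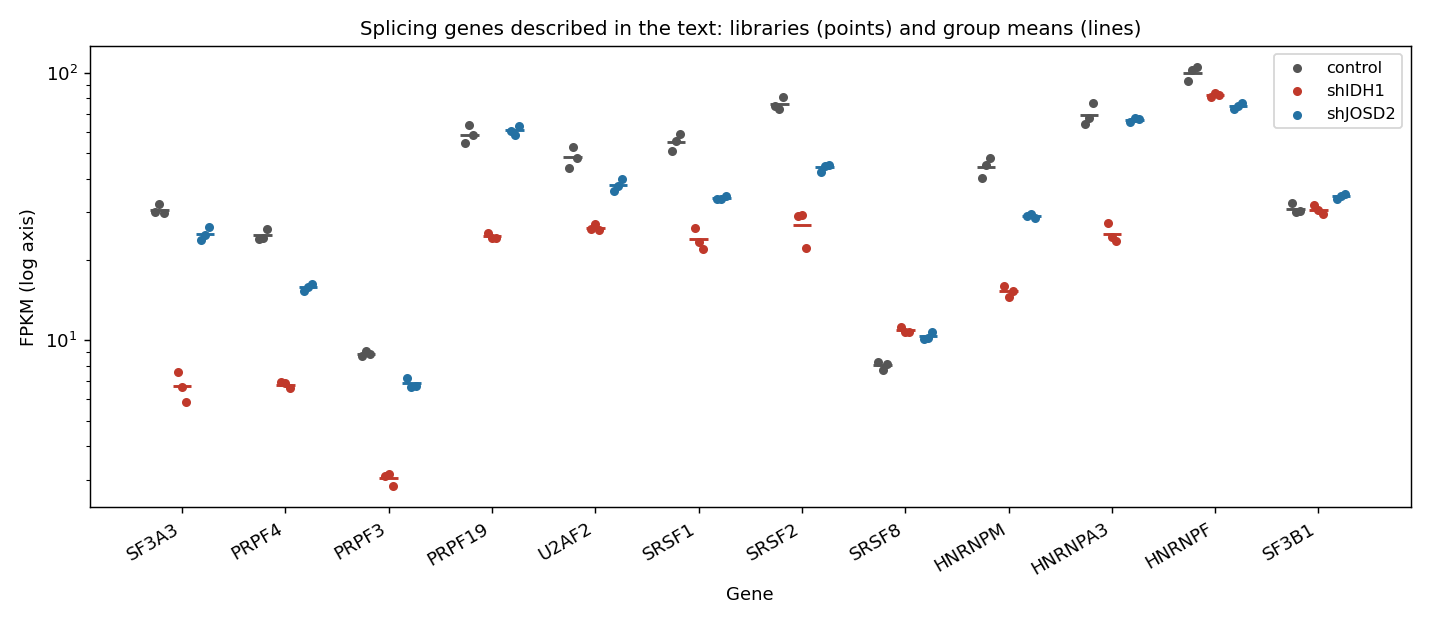
FPKM on a log axis for 12 splicing genes of the SF3, PRPF, U2AF, SR and hnRNP families, 1 point per library and a line at the group mean. PRPF19 and HNRNPA3 are low in shIDH1 libraries (red) with shJOSD2 libraries (blue) beside the controls (grey), HNRNPF is lowest in shJOSD2 libraries, SRSF8 is above control with both hairpins, and SF3B1 is between 29.7 and 35.3 FPKM throughout.

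Of the 22 tested hnRNP genes 19 fell in shIDH1 and 18 in shJOSD2 cells, and 11 were lower and 1 higher between the hairpins. HNRNPA1, the A1 protein that blocks many splice sites, was the most abundant of the 86 genes in control, at 181, 196 and 201 FPKM in the controls, 102, 94.2 and 89.9 under shIDH1 and 129, 135 and 135 under shJOSD2. The groups were separate, with falls of 1.02 ± 0.06 and 0.68 ± 0.06 (edgeR adjusted p = 7.03e-08 and 5.48e-06). HNRNPA1 has many processed copies, and HNRNPA1L2 and HNRNPA1P48, a pseudogene by name whose entry lists a protein-coding transcript, are among the 86 genes. The sum of these 3 was 202 ± 10.2 FPKM in the controls, 102 ± 5.87 under shIDH1 and 140 ± 3.22 under shJOSD2 (SD, n = 3 each).

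HNRNPM (ENSG00000099783, GRCh38 chr19:8444767-8489114, plus strand), a regulator of alternative exons, fell furthest of the family in shIDH1 cells. It was at 40.4, 45.1 and 48.0 FPKM in the controls, 15.9, 14.5 and 15.3 under shIDH1 and 29.2, 29.6 and 28.7 under shJOSD2, separate ranges with falls of 1.55 ± 0.07 (edgeR adjusted p = 5.93e-09) and 0.76 ± 0.07 (adjusted p = 5.09e-06). HNRNPL, which binds CA-rich RNA, fell by 1.10 ± 0.07 and 0.73 ± 0.07, HNRNPK, which binds C-rich RNA, by 0.96 ± 0.06 and 0.37 ± 0.06, and HNRNPH1, which binds G-rich RNA, by 0.91 ± 0.05 and 0.28 ± 0.05. HNRNPA3 was at 64.3, 67.5 and 76.7 FPKM in the controls, 27.3, 24.3 and 23.4 under shIDH1 and 65.3, 67.7 and 67.1 under shJOSD2. The shIDH1 libraries alone were low, by 1.48 ± 0.08 against control and 1.27 ± 0.07 against shJOSD2 (edgeR adjusted p = 5.96e-08). Its small value in shJOSD2 cells, -0.21 ± 0.07 (adjusted p = 0.0412), was not called without any 1 of 6 libraries (control replicates 2 and 3, shIDH1 replicate 2 and each shJOSD2 library, adjusted p of 0.0567 to 0.2) nor with the lone control (-0.06).

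Other hnRNP genes fell with both hairpins and were not called between them. HNRNPAB was at 89.9, 94.7 and 122 FPKM in the controls, 54.4, 49.1 and 43.5 under shIDH1 and 52.2, 60.9 and 62.1 under shJOSD2, with falls of 1.06 ± 0.11 and 0.95 ± 0.11 and a difference of -0.11 ± 0.11 (edgeR adjusted p = 0.487). HNRNPUL2 fell by 0.89 ± 0.07 and 0.78 ± 0.07, HNRNPU, a scaffold of nuclear RNA, by 0.61 ± 0.07 and 0.64 ± 0.07, and HNRNPC, which masks uridine tracts, by 0.53 ± 0.07 and 0.59 ± 0.07. Their differences between the hairpins lay between -0.11 and 0.07, which does not show that they were equal, and HNRNPUL2 was called lower in shIDH1 cells without TMM factors, at -0.26. HNRNPF was at 92.7, 102 and 105 FPKM in the controls, 81.1, 83.8 and 82.6 under shIDH1 and 73.2, 74.7 and 76.8 under shJOSD2. It fell with both hairpins and stood higher in shIDH1 than in shJOSD2 cells, by 0.29 ± 0.06 (edgeR adjusted p = 0.00267), a call not kept in every alternative. HNRNPR was lower in shIDH1 cells by 0.64 ± 0.09 and at -0.07 ± 0.09 in shJOSD2 cells. HNRNPUL2 overlaps a read-through transcript entry with BSCL2, whose value of 0.89 in shJOSD2 cells was not called.

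A further 88 entries of the table match the names without a protein-coding transcript, and 30 of these passed the filter. In shIDH1 cells 10 were lower and 0 higher (median -0.61; edgeR), and in shJOSD2 cells 4 were lower and 2 higher (median -0.27), which is 33.3% and 13.3% of the 30 called lower, beside 25.6% and 20.1% of all tested genes. For some copies the values stood near those of the gene they are named for. HNRNPA3P6 had log2 changes of -1.68 and -0.18, beside -1.48 and -0.21 for HNRNPA3, HNRNPA1P7 had -0.83 and -0.64, beside -1.02 and -0.68 for HNRNPA1, and SF3A3P1 had -2.82 and -0.67, beside -2.20 and -0.45 for SF3A3, where HNRNPA3P6 and SF3A3P1 were not called in shJOSD2 cells. SF3A3P1 rests on 2 to 45 counts per library. Other copies went the other way in shJOSD2 cells, SNRPCP19 with a rise of 1.65 ± 0.51 and HNRNPA1P49 with one of 1.40 ± 0.43, while SNRPC and HNRNPA1 fell. These copies also had low counts, 7 to 78 per library for SNRPCP19 and 16 to 91 for HNRNPA1P49. How reads were shared between parents and copies is not given in the sources used here and was not tested.

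Where genes of a related pair moved unequally, their proportions changed. SRSF8 made up 10%, 9.59% and 9.15% of the summed FPKM of SRSF8 and SRSF2 in the controls, 27.7%, 26.7% and 32.6% under shIDH1 and 19.3%, 18.4% and 19.2% under shJOSD2. SNRPN made up 13.0%, 11.7% and 11.8% of SNRPN and SNRPB in the controls, 20.2%, 21.7% and 20.9% under shIDH1 and 22.3%, 22.1% and 22.4% under shJOSD2. In both pairs each hairpin library exceeded every control. HNRNPH2 was 50.0% ± 1.67 of HNRNPH1 and HNRNPH2 in the controls, 67.6% ± 1.93 under shIDH1 and 55.2% ± 4.02 under shJOSD2 (SD, n = 3), where the last overlapped control. LSM14A, of a pair that acts in cytoplasmic mRNA granules, was 54.9% ± 2.98 of LSM14A and LSM14B, then 70.4% ± 1.36 and 62.5% ± 1.54. All these shares depend on the transcript lengths behind FPKM. In control HNRNPH2 had 5176 to 5894 counts and HNRNPH1 22878 to 24006, and SNRPN had 6065 to 6540 and SNRPB 16462 to 17668. The pairs were chosen after their values were seen, because their genes moved unequally, so the shares are a description with no test.

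**Figure D5:**
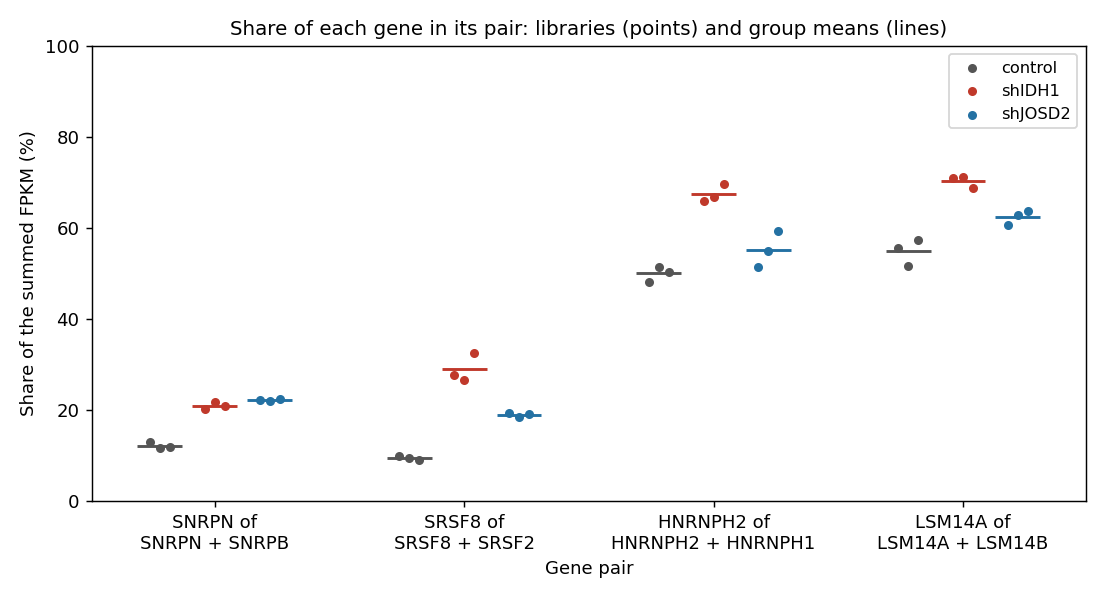
Share of the first gene in the summed FPKM of 4 gene pairs (percent, y axis), 1 point per library and a line at the group mean. In shIDH1 libraries (red) every share is above every control (grey), from 20.2% to 71.3%.

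A list of 127 other splicing genes (further snRNP proteins, assembly factors, the Prp19 and exon junction complexes, the minor spliceosome, SR-related proteins and regulators of alternative splicing), of which 126 were tested, shifted the same way with a smaller median. In shIDH1 cells 88 fell and 11 rose (median -0.42), in shJOSD2 cells 68 fell and 6 rose (median -0.29), and between the hairpins 52 were lower and 23 higher (median -0.17). The lower shares were 69.8%, 54.0% and 41.3%, beside 25.6%, 20.1% and 24.0% of all tested genes. Of all tested genes 24.5%, 18.2% and 20.8% were higher. Without TMM factors the counts were 51 lower and 18 higher in shJOSD2 cells and 80 lower and 14 higher between the hairpins. All 21492 tested genes then gave 2934 lower and 5638 higher, and 6653 lower and 3316 higher. Genes of U5 and the tri-snRNP were lower in 11 of 13 and 10 of 13 cases, with none higher, and those of snRNP assembly in 12 and 6 of 17. Of 7 genes of the minor spliceosome, 2 were lower and 1 higher in shIDH1 cells, and 3 lower and 1 higher in shJOSD2 cells. The 28.6% lower in shIDH1 cells is near the 25.6% of all tested genes.

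SNRNP25, of the minor spliceosome, and SNRNP40, of U5, fell by 2.17 ± 0.17 and 1.91 ± 0.14 in shIDH1 cells and by 0.66 ± 0.16 and 0.73 ± 0.14 in shJOSD2 cells, where both calls ended with the lone control. Of the 126 other splicing genes tested, 23 were called higher in shIDH1 than in shJOSD2 cells. SNRNP70 and TARDBP were among these and had their lowest level in shJOSD2 cells. SNRNP70, the U1 70K protein, was at 38.8, 49.5 and 43.0 FPKM in the controls, 29.6, 31.2 and 30.9 under shIDH1 and 15.8, 15.4 and 15.3 under shJOSD2, with a difference of 1.13 ± 0.09 between the hairpins (edgeR adjusted p = 7.73e-07). TARDBP, encoding TDP-43, fell by 0.92 ± 0.07 in shIDH1 and 1.88 ± 0.07 in shJOSD2 cells.

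PTBP3, a polypyrimidine-tract protein, moved in opposite directions, at 28.9, 21.6 and 28.8 FPKM in the controls, 39.5, 33.5 and 33.1 under shIDH1 and 11.7, 12.2 and 11.7 under shJOSD2 (log2 changes of 0.42 ± 0.09 and -1.30 ± 0.09, edgeR adjusted p = 0.00221 and 7.5e-07). QKI rose by 0.56 ± 0.06 in shIDH1 cells and fell by 0.38 ± 0.06 in shJOSD2 cells, and CLK1, a kinase of SR proteins, rose by 0.58 ± 0.07 and fell by 0.29 ± 0.07. The CLK1 fall was not called without TMM factors. ZRSR2, the U2AF1 relative of the minor spliceosome, rose by 0.86 ± 0.12 in shIDH1 cells, RBM5 by 0.46 ± 0.05 and 0.52 ± 0.05 with the shIDH1 and shJOSD2 hairpins, and LUC7L3 by 0.29 ± 0.08 in shJOSD2 cells. RNPC3 rose there by 0.44 ± 0.12, a call lost without shJOSD2 replicate 2 (0.38, edgeR adjusted p = 0.0555) or with the lone control. MBNL3, a muscleblind protein at 0.554 to 0.770 FPKM in control, fell by 1.71 ± 0.20 in shIDH1 cells and by 1.83 ± 0.20 against shJOSD2. ESRP1, an epithelial splicing regulator, was at 0.0565, 0.468 and 0.479 FPKM in control libraries, so its call in shJOSD2 cells (-2.05 ± 0.61) rested on control replicates 2 and 3, and it was lost without replicate 2 (-1.71, edgeR adjusted p = 0.0738), replicate 3 (adjusted p = 0.0752) or shJOSD2 replicates 2 or 3 (adjusted p = 0.0675 and 0.0772). With the lone control it reversed to 0.40 (adjusted p = 0.733).

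Some calls above were not kept in all 21 alternatives. In shIDH1 cells 63 of the 69 calls were kept, and the others were HNRNPF, LSM10, PRPF6, SNRPG, SRSF6 and SRSF9. In shJOSD2 cells 32 of 54 were kept, and between the hairpins 47 of 57. The 22 shJOSD2 calls not kept were HNRNPA3, HNRNPD, HNRNPDL, HNRNPH1, LSM2, LSM3, LSM5, LSM11, LSM14B, PRPF6, PRPF31, PRPF38A, PRPF40B, SF3A1, SF3B2, SF3B4, SNRPD2, SNRPD3, SNRPE, SNRPF, SRSF8 and U2AF1L4. None of the called genes among the 86 changed sign in any of the 21 alternatives.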

How the data were processed

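Poly(A) RNA of 9 libraries was read as strand-marked pairs with molecular identifiers, per the labels' protocols. The submitters' processing notes name GRCh38 as the build and, without roles, StringTie 1.3.4d, HISAT2 2.0.4, cutadapt 1.9 and UMI-tools. Annotation, counting step, strand setting and removal of duplicates: not given in the sources used here. The authors' deposited counts hold a whole number per gene with no normalization, and the deposited FPKM values, so named per the file headers, are relative to transcript length and sequencing depth. Among deposited counts from 1 to 20, 30.2% are multiples of 4, so a count may not be 1 fragment and precision may be lower than the counts imply. Replicates differed by more than counting noise (chi-square over its degrees of freedom 3.89 to 11.1, on counts divided by 4), so no pair was counted as 1 library; whether they are technical repeats is not shown by this.

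All 9 libraries entered 1 edgeR 4.0.16 fit in R 4.3.3 (filterByExpr, TMM, quasi-likelihood F-tests, Benjamini-Hochberg adjustment over 21492 genes at 0.05, no block). A gene is called higher, lower, risen or fallen at an adjusted p below 0.05, SE was taken as |log2 change| divided by √F, and SDs are over 3 libraries. The code was tested on simulated data. Alternatives were DESeq2 1.42.0, limma 3.58.1 on log2 FPKM with pseudocounts of 1 and 0.1, other filters and scalings, counts divided by 4, a replicate block, 2-group fits, each library left out, and control replicate 1 alone, assumed to vary like the other groups. Same-numbered libraries did not deviate together (r from -0.018 to 0.038).

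The members, lists and tests were chosen with earlier results of these data known. Named genes are, per family and comparison, up to 4 called members of largest change with separate FPKM ranges, the most abundant member in control, and up to 3 other splicing genes per direction; genes named beyond these, the LSM2 to LSM8 group, the pairs, the summed copies and the promoters were chosen after their values were seen. Promoters are from RefSeq GRCh38.p14. Values of 2 genes are not reported here. Figures were drawn with matplotlib.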

Additional observations from a re-analysis of the deposited data

How the results depend on the processing

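The scaling moved the splicing genes together with all genes. The median log2 change of the splicing genes in shJOSD2 cells was -0.34, but -0.18 without TMM factors, -0.25 with upper-quartile factors, -0.18 by limma at either pseudocount (1 or 0.1) and -0.17 against control replicate 1 alone, which also left 33 calls in place of 54. In shIDH1 cells the median was -0.77, but -0.65 with upper-quartile factors, -0.64 by limma with a pseudocount of 1 and -0.60 against control replicate 1 alone. Between the hairpins it was -0.33, but -0.49 without TMM factors and -0.45 and -0.48 by limma with pseudocounts of 1 and 0.1. The median of all genes moved too, to 0.18 and -0.21 without TMM factors for shJOSD2 against control and between the hairpins, and to 0.12 in both control comparisons with upper-quartile factors. Relative to it the shJOSD2 median was -0.37 with TMM, without it and with upper-quartile factors, but -0.24 and -0.33 by limma with pseudocounts of 1 and 0.1 and -0.24 against control replicate 1 alone. Leaving out 1 library gave 67 to 69 calls and medians of -0.79 to -0.70 in shIDH1 cells, 44 to 54 calls and -0.40 to -0.30 in shJOSD2 cells, and 52 to 58 calls and -0.36 to -0.32 between the hairpins. The other splicing genes then gave 91 to 98, 66 to 78 and 64 to 79 calls. With a replicate block 68, 51 and 56 splicing genes were called in the 3 comparisons, with medians of -0.76, -0.35 and -0.33, and the block ended the calls of HNRNPA3, PRPF40B, SNRPE and ESRP1 among the named genes in shJOSD2 cells. The labels do not say that equal numbers pair the libraries, and the deviations of same-numbered libraries were uncorrelated. Over 168 gene and comparison pairs named by the rule, 3375 of 3522 alternative values kept their direction and side of the threshold, 117 were no longer called, 29 became called, and ESRP1 in shJOSD2 cells reversed to 0.40 against control replicate 1 alone. The causes were not tested beyond the fewer libraries or the other scaling itself. Low counts limit SRSF12 and ESRP1.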
